A study of Mus musculus with 6 samples.

Results

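Csf1, the growth factor that keeps macrophages alive, and 9 genes that macrophages express (Csf1r, C1qa, C1qb, C1qc, Cd163, Mrc1, Cd14, Cd68 and Lyz2) were followed through a count table of mammary glands engrafted with WT or Adamts18-/- epithelium. The rows were taken by gene symbol, 10 of the 34590 symbols in the table, and all 10 passed the filter on low counts that left 17345 genes for testing. Neither the ligand, its receptor nor any other macrophage gene was called different between the genotypes, and for 9 of the 10 genes, all but Lyz2, the sign of the difference varied from host to host.

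The table holds 6 libraries from 3 host mice, with total counts of 53875123 to 71595924 reads. In each host, mouse 1, 2 or 3, the left inguinal gland, number 4, carried a WT.EGFP+ graft and the right one an Adamts18-/-.EGFP+ graft, so that genotype and body side cannot be told apart. The Adamts18 deletion was carried by the graft alone. The hosts were WT females cleared of their own epithelium when prepubertal, and both kinds of donor carried EGFP, a green fluorescent protein, driven by a chicken beta-actin promoter that is active in most cell types. The host tissue was WT on both sides, and the mouse number also stands for the donor and the experiment. The age of the glands used for RNA-seq was not given in the sources used here.

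Macrophages are tissue phagocytes that arise from embryonic precursors and from blood monocytes. Csf1, released mainly by stromal and epithelial cells, binds the receptor tyrosine kinase Csf1r on their surface and drives their survival and proliferation. In the mammary gland macrophages gather around terminal end buds and along ducts, and mice without Csf1 have few of them and poorly branched ducts.

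The promoters of 4 of these genes are shown because C1qb and C1qc kept the most constant ratio of any pair described below, Mrc1 held the most matches to the motif searched, and Csf1 is the ligand. Each window runs from 250 bases before to 50 bases after the start of the gene in the RefSeq annotation of GRCm38.p6 and is written in the direction of transcription. Capitals mark the PU box, GAGGAA or its reverse complement TTCCTC, a core sequence bound by the myeloid factor PU.1. The windows lie at chr4:136886151-136886450 on the minus strand for C1qb, chr4:136892865-136893164 on the minus strand for C1qc, chr2:14229164-14229463 on the plus strand for Mrc1 and chr3:107760420-107760719 on the minus strand for Csf1.
C1qb: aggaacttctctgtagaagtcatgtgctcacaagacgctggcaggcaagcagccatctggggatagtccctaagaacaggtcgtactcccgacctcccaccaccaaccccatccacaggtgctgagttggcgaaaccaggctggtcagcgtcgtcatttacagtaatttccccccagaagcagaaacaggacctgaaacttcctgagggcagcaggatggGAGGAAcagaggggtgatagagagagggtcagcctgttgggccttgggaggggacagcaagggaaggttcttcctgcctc
C1qc: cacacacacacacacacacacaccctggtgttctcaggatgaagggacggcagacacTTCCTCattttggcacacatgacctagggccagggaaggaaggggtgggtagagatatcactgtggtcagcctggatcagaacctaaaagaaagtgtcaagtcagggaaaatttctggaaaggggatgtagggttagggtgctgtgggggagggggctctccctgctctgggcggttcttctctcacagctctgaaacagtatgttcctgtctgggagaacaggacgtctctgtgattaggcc
Mrc1: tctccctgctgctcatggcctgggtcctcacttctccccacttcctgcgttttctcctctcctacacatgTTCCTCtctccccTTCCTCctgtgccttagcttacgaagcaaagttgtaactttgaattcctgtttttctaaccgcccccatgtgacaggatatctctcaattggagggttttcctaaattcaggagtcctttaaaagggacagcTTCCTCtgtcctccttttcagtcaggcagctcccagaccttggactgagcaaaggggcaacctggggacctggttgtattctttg
Csf1: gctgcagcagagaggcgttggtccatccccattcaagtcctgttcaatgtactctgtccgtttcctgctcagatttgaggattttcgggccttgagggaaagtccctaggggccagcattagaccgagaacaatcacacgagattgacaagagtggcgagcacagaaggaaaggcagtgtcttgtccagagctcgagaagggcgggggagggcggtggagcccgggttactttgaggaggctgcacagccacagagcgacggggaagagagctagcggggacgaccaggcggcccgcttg
The PU box occurred 1 time in the windows of C1qb and C1qc, 3 times in that of Mrc1 and 0 times in that of Csf1. Of the other members with a window, Cd68 had 2 matches, and Cd163 and Lyz2 had 0. Among all 32851 promoter windows of this length, 28.3% held at least 1 match on either strand, so a match is common and describes the letters only.

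The levels showed that macrophage RNA was abundant in every library. The 9 macrophage genes together took 0.186% to 0.309% of all counted reads, and the count of any 1 member in any 1 library lay between 2656 and 86473, where counting error is at most 1.94%. Per length of annotated exon (RPKM), the mean level over the 6 glands was 787 for Lyz2, 263 for C1qa, 239 for C1qb, 116 for C1qc, 56.6 for Cd68, 50.1 for Csf1r, 40.4 for Cd14, 37.7 for Mrc1, 26.1 for Csf1 and 20.1 for Cd163. Lyz2 stood above C1qa, C1qb above C1qc, and C1qc above Cd68 with ranges that did not overlap, whereas the ranges of the remaining neighbours in this order did. Cd14 was above Mrc1, and Csf1 above Cd163, in 5 of 6 glands only. Csf1r and C1qa ranked in the 94.6 and 99.3 percentile of the 15441 tested genes with an annotated length. The lengths came from the GRCm38 annotation, since that of mm9, the build named by the submitters, was not used here, and C1qc's annotated exons are longer (1931 bases) than those of C1qa (1040) and C1qb (1088), which lowers its RPKM.

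The sample labels describe sorted GFP-positive mammary epithelial cells, while the study's text speaks of profiled glands. By markers, the libraries held more than epithelium. In addition to the macrophage genes, 8 adipocyte genes such as Adipoq summed to between 7782 and 19228 CPM (counts per 1e6 reads after TMM scaling), 8 fibroblast genes such as Col1a1 to between 8966 and 12310 CPM, and 24 genes shared by epithelial cell types, such as Epcam, to between 1306 and 2570 CPM. The table does not tell donor from host RNA. In bulk RNA of this kind, fewer macrophages and less RNA per macrophage cannot be told apart. The targeted gene, Adamts18, had 252, 608 and 383 reads in the WT glands of the hosts 1 to 3 and 144, 295 and 202 in the contralateral Adamts18-/- glands, lower in 3 of 3 mice.

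The first question was whether the Csf1 axis differed between the grafts. Csf1 was at 178, 124 and 119 CPM in WT glands and at 163, 160 and 82.3 CPM in Adamts18-/- glands, the values being those of mice 1, 2 and 3 in this order here and below. The groups overlapped, with the highest value in a WT gland and the lowest in an Adamts18-/- gland. Csf1 thus stood at 140 ± 32.9 CPM in WT and 135 ± 45.7 CPM with Adamts18-/- grafts (SD, n = 3 each). The fitted log2 difference of Csf1 (Adamts18-/- minus WT) was -0.10 with a standard error of 0.18 and a 95% interval of -0.58 to 0.38 (edgeR's quasi-likelihood fit blocked on the host, adjusted p = 0.9865). Csf1r, the receptor, was at 383, 205 and 286 CPM in WT glands and at 379, 245 and 238 CPM in Adamts18-/- glands. Both glands of mouse 1 lay above the 4 others, whichever graft they carried. The log2 difference of Csf1r was -0.0067 (standard error 0.13, 95% interval -0.34 to 0.33, adjusted p = 0.9988, edgeR). A stretch of 873 of the 5774 exonic bases of Csf1r also belongs to Hmgxb3, a gene on the opposite strand, and whether counting used the strand was not given in the sources used here. Per length, Csf1 stood at 0.378 to 0.715 times the level of Csf1r, lowest in the Adamts18-/- gland of mouse 3 and highest in that of mouse 2.

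**Figure D1:**
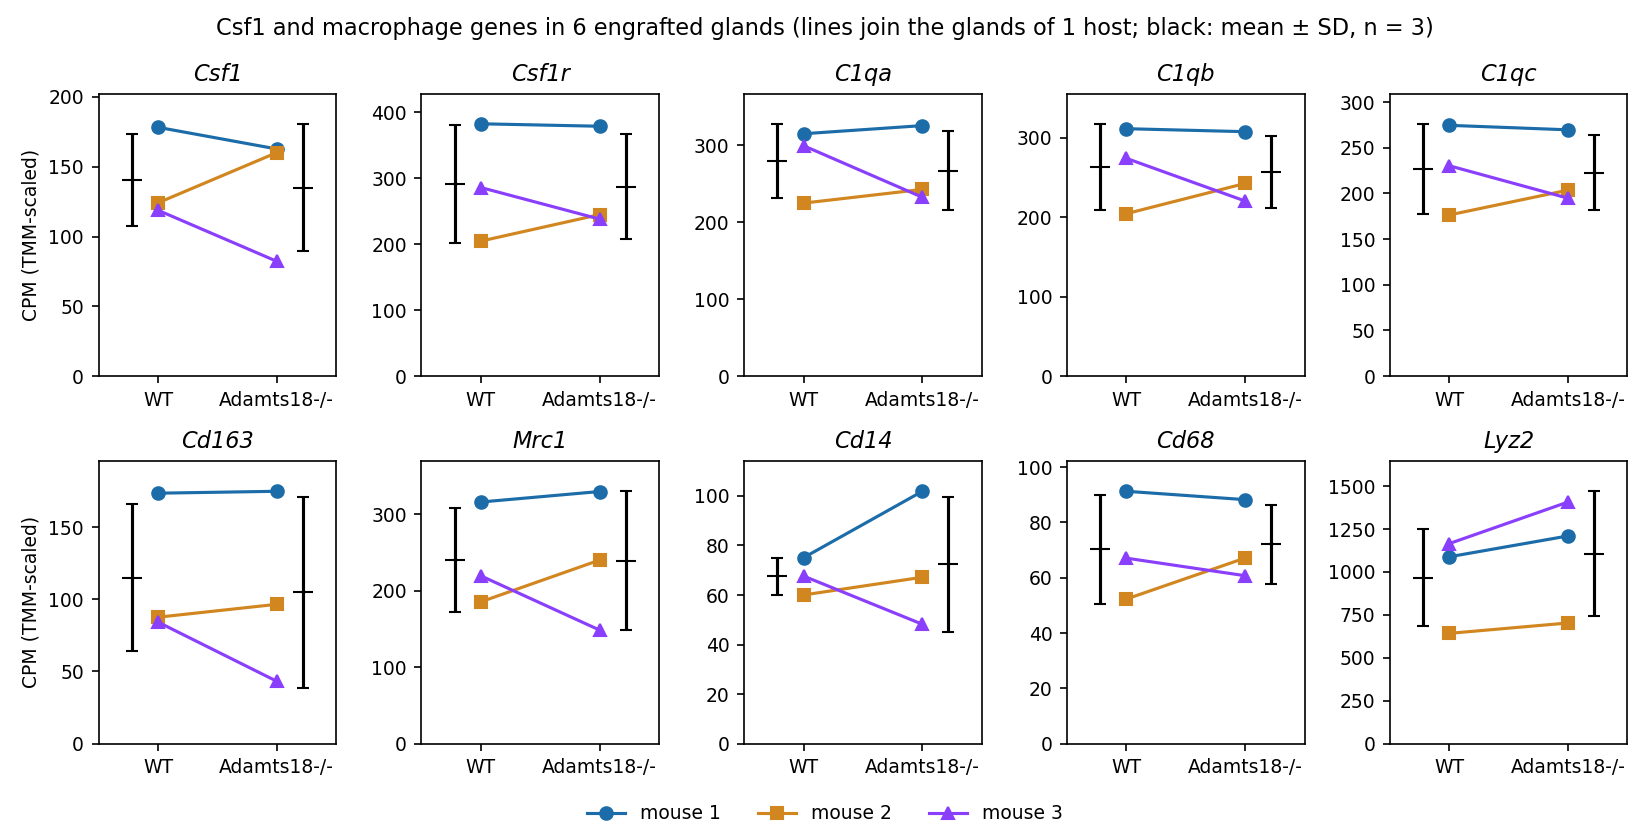
Level of each gene in CPM (vertical axis, from 0) in WT and Adamts18-/- glands. Coloured symbols are single glands, lines join the 2 glands of a host, and black bars give the mean ± SD of 3 glands. For Csf1 the Adamts18-/- gland stood lower in mouse 3 (82.3 against 119 CPM) and higher in mouse 2 (160 against 124 CPM), and in 9 of the 10 panels these hosts slope in opposite directions.

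C1qa, C1qb and C1qc encode the 3 chains of C1q, the recognition part of the classical complement pathway, which macrophages make in most tissues. The genes lie side by side on chromosome 4, in the order C1qb, C1qc and C1qa. C1qb was at 311, 205 and 274 CPM in WT glands and at 308, 243 and 220 CPM in the Adamts18-/- glands. C1qa was at 315, 225 and 299 CPM in WT glands and 326, 243 and 232 CPM in Adamts18-/- glands. C1qc was at 275, 176 and 230 CPM in WT glands and 270, 204 and 195 CPM in Adamts18-/- glands. For each of the 3 chains the lowest gland was the WT gland of mouse 2 and the groups overlapped. Their log2 differences were -0.07 for C1qa, -0.03 for C1qb and -0.02 for C1qc, with standard errors of 0.13, 0.13 and 0.11. The 95% intervals were -0.40 to 0.26 for C1qa, -0.37 to 0.32 for C1qb and -0.32 to 0.28 for C1qc. The chains varied together from gland to gland. The ratio of C1qc to C1qb, per length, stayed between 0.473 and 0.498 over the 6 glands, a span of 1.05-fold, and that of C1qa to C1qb between 1.05 and 1.15, while C1qb itself spanned 1.52-fold.

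Cd163, a scavenger receptor that takes up haemoglobin with haptoglobin, and Mrc1, the mannose receptor, are typical of resident tissue macrophages. Cd163 was at 174, 87.6 and 84.2 CPM in WT glands and at 175, 96.5 and 43.2 CPM in the Adamts18-/- glands. It had the widest range of the 10 genes, 4.05-fold from the lowest to the highest gland, with mouse 1 high and the Adamts18-/- gland of mouse 3 low. Its log2 difference was -0.27 (standard error 0.24, 95% interval -0.89 to 0.36, adjusted p = 0.9865, edgeR). Mrc1 was at 316, 186 and 219 CPM in WT glands and 330, 240 and 149 CPM in Adamts18-/- glands. The order of the glands was that of Cd163 at both ends, with mouse 1 highest and the Adamts18-/- gland of mouse 3 lowest. The log2 difference of Mrc1 was -0.04 (standard error 0.20, 95% interval -0.56 to 0.47).

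Cd14, the co-receptor that hands bacterial lipopolysaccharide to Tlr4, is also made by luminal progenitor cells of the mammary epithelium. It was at 75.1, 60.0 and 67.6 CPM in WT glands and at 102, 67.2 and 48.2 CPM in the Adamts18-/- glands. The WT glands lay close together, at 67.6 ± 7.52 CPM, while the Adamts18-/- glands held both the highest and the lowest value, at 72.4 ± 27.2 CPM (SD, n = 3 each). Cd14 had a log2 difference of 0.04 (standard error 0.19, 95% interval -0.46 to 0.54). The 11 luminal progenitor and secretory genes, of which 1, Elf5, was lower at the thresholds of the study (a log2 difference below -0.32 or above 0.32, which is a fold change of 0.8 or its inverse, at an unadjusted p under 0.05), summed to between 551 and 1186 CPM in WT and between 480 and 662 CPM in Adamts18-/- glands, and their part in the Cd14 level was not tested. Cd68, a glycoprotein of lysosomes, was at 91.3, 52.3 and 67.1 CPM in WT glands and 88.2, 67.1 and 60.7 CPM in Adamts18-/- glands, a log2 difference of 0.06 (standard error 0.12, 95% interval -0.25 to 0.37). As for Csf1r, both glands of mouse 1 stood above the others.

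Lyz2, the lysozyme of macrophages and neutrophils, was the most abundant member and the only one of the 10 that was higher in the Adamts18-/- gland of all 3 mice. It was at 1088, 642 and 1165 CPM in WT glands and at 1209.5, 703 and 1407 CPM in the Adamts18-/- glands. The groups overlapped, since both glands of mouse 2 were low. The log2 differences within mice 1, 2 and 3 were 0.15, 0.13 and 0.27, and the fitted value was 0.18 (standard error 0.11, 95% interval -0.10 to 0.47, adjusted p = 0.9865, edgeR). A sign shared by the 3 hosts was found for 23.4% of all tested genes and for 1 of the 10 members, which is no more than that background. Lyz1, a near-identical copy of Lyz2 which may have split reads with it in the counting, was at 92.7, 71.8 and 114 CPM in WT glands and 122, 63.4 and 155 CPM in Adamts18-/- glands, with a log2 difference of 0.22 (standard error 0.14).

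Taken gene by gene, 0 of the 10 members were lower and 0 were higher at these thresholds. Over all 17345 tested genes, 1.84% were lower and 1.17% were higher by this rule, 3.01% in either direction. At an unadjusted p under 0.05, 0 members passed, against 3.86% of all tested genes, and their adjusted p lay between 0.9865 and 0.999 (edgeR, Benjamini-Hochberg over all tested genes). By adjusted p under 0.05 no gene in the table was called (0.00%). DESeq2 and limma-voom also called 0 members at these thresholds, and at an unadjusted p under 0.05 DESeq2 passed 1, Lyz2, and limma-voom 0. The groups overlapped for all 10 members, while 4.94% of all tested genes had WT and Adamts18-/- levels that did not overlap. The median log2 difference was -0.02 over the members and 6.5e-04 over all tested genes. The intervals do not show equal levels. They exclude a log2 change of 1 in either direction for all 10 members, but for 9 of the 10 they include a fold change of 0.8 or its inverse, and for 5 of those both. C1qc is the member whose interval includes neither.

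**Figure D2:**
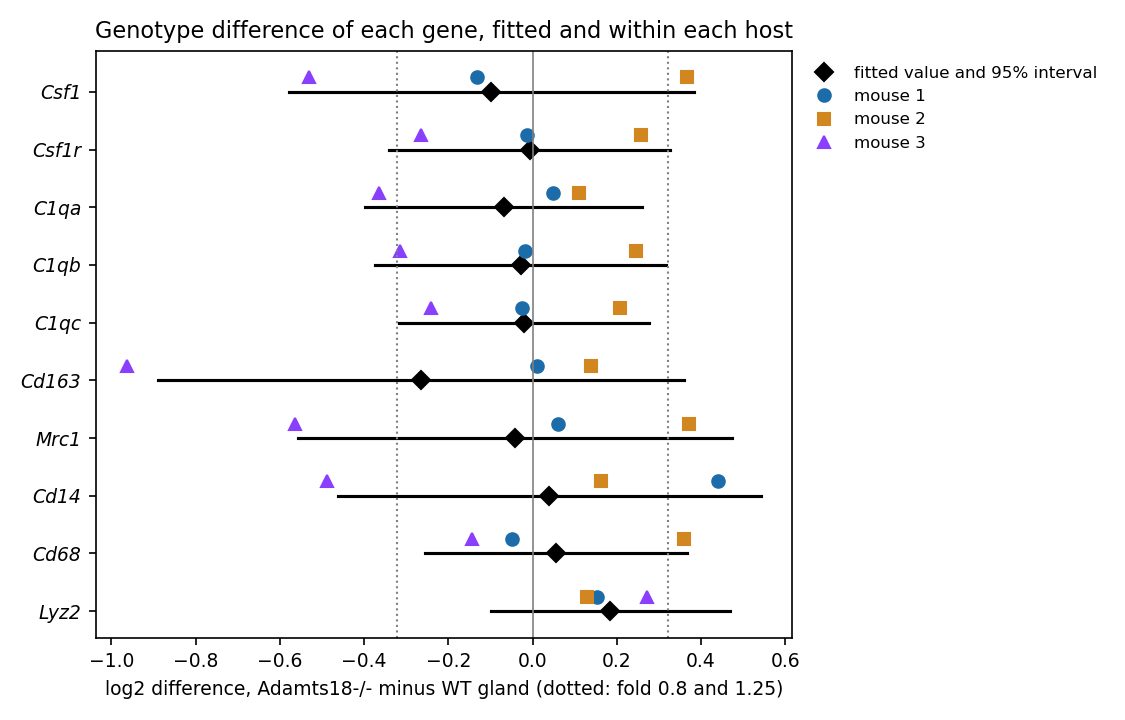
Log2 difference between the Adamts18-/- and the WT gland (horizontal axis) for each gene. Black diamonds with bars are the fitted values with 95% intervals, coloured symbols are the differences within single hosts, and dotted lines mark a fold change of 0.8 and its inverse. All 10 bars cross 0, with mouse 2 to the right of 0 for each gene and mouse 3 to the left for 9 of the 10.

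The differences within single hosts did not share a sign, except for Lyz2. In mouse 1, 5 of the 10 members were higher in the Adamts18-/- gland and 5 were lower, with a median log2 difference of -0.0016. In mouse 2 all 10 were higher, between 0.11 for C1qa and 0.37 for Mrc1, with a median of 0.23. In mouse 3, 9 were lower, the exception being Lyz2, with a median of -0.34 and the lowest value, -0.96, for Cd163. Of all tested genes 47.5%, 49.2% and 49.2% were higher in the Adamts18-/- glands of mice 1, 2 and 3. The members of a host were measured in the same 2 libraries, so their common sign is not 10 separate observations, and a difference between 2 libraries of 1 host has no replicate. Without mouse 3 the fitted values of all 10 members were above 0, with a median of 0.13, and without mouse 2 the median was -0.15, but none was called in either case.

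Levels also varied between hosts. The mean of both glands was highest in mouse 1 for 9 of the 10 genes, and Csf1 for example stood at 170.5, 142 and 101 CPM in mice 1, 2 and 3. Lyz2 was highest in mouse 3, at 1286 CPM against 1149 in mouse 1 and 672 in mouse 2. In an F test of the mouse terms of the same fit (edgeR), 6 of the 10 members had an unadjusted p under 0.05, against 27.2% of all tested genes, and 0 had an adjusted p under 0.05, against 0.628% of all tested genes. The adjusted p was lowest for Lyz2 (0.0670) and Cd163 (0.0982). DESeq2's likelihood ratio test called 7 members and 3274 genes between mice, so the count depended on the tool.

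Relative to C1qb, the 8 other macrophage genes varied to graded degrees, least for C1qc and most for Cd163. Csf1r and Cd68 kept close to C1qb, with ratios that spanned 1.23-fold and 1.20-fold over the 6 glands. Cd14 and Mrc1 spanned 1.51-fold and 1.59-fold. The ratio of Lyz2 to C1qb spanned 2.20-fold, from 2.40 in the Adamts18-/- gland of mouse 2 to 5.28 in that of mouse 3. The ratio of Cd163 to C1qb spanned 2.90-fold, from 0.0391 in the Adamts18-/- gland of mouse 3 to 0.113 in that of mouse 1. Measured as the root mean square difference of the centred log2 profiles over the 6 libraries, C1qb and C1qc were the most alike pair (0.0307) and Cd163 and Lyz2 the least alike (0.843).

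**Figure D3:**
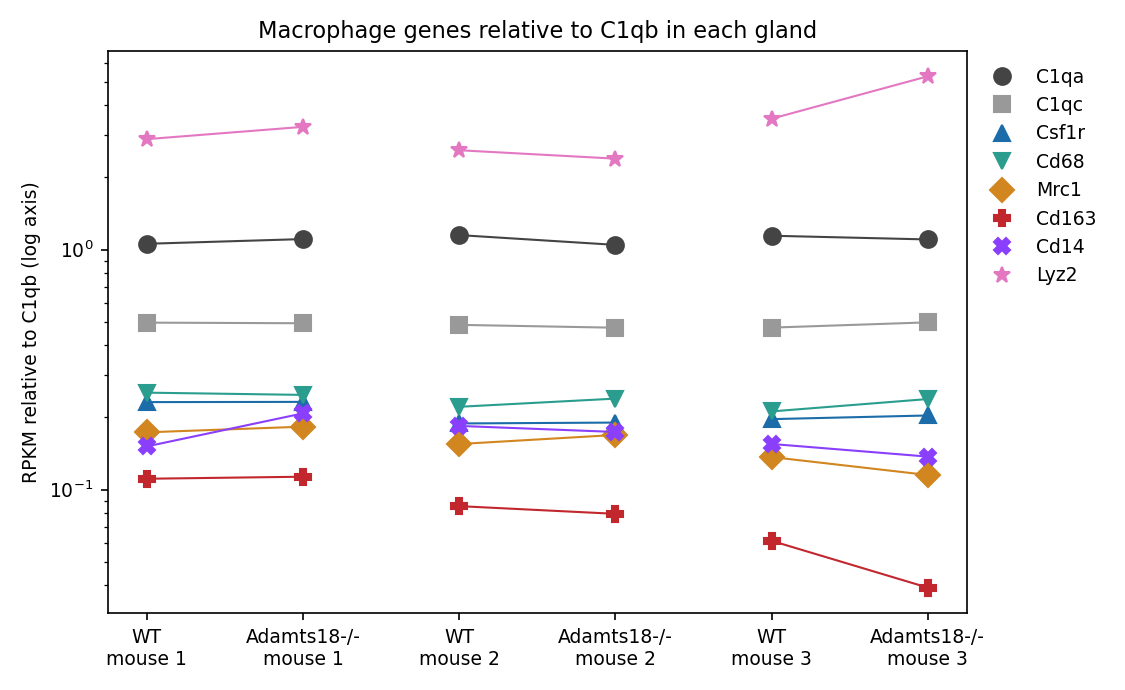
RPKM of each macrophage gene divided by that of C1qb (vertical log axis) in each gland, with lines between the 2 glands of a host. C1qa and C1qc run flat across the 6 glands, while in mouse 3 Lyz2 is high and Cd163 is low, most so in the Adamts18-/- gland.

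By the same measure over all genes of at least 1 CPM on average in log2 terms, 14600 in all without the members, the profiles most like the mean of the C1q chains were those of Scamp5 (0.0234), Mmp14 (0.0359), Lrrc25 (0.0382), Grn (0.0404) and Man1c1 (0.0429). Those most like Csf1 were Kcnq1 (0.0292), Loxl1 (0.0428), Gfra4 (0.0440), Dusp26 (0.0497) and Heg1 (0.0527). Those most like Cd14 were Tgfb2 (0.0531), Zfp879 (0.0800), Maf (0.0816), Gnpnat1 (0.0929) and Adam22 (0.0935). These matches come from 6 libraries and carry no test, and nothing is drawn from them on function.

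A list of 17 other genes of the Csf1 pathway and of myeloid growth factor signalling, the GM-CSF receptor genes Csf2ra and Csf2rb included, held 0 lower and 0 higher genes at the thresholds, with a median log2 difference of 0.12 and 3 values below 0. Il34, the other ligand of Csf1r, was at 24.6 ± 1.78 CPM in WT and 23.8 ± 6.08 CPM with Adamts18-/- grafts (SD, n = 3 each), with a log2 difference of -0.08 (standard error 0.13). Sfpi1, the older symbol of the gene for PU.1, was at 22.3 ± 6.45 and 25.5 ± 8.02 CPM, a log2 difference of 0.19 (standard error 0.12). Maf, a transcription factor of mature macrophages, had a log2 difference of 0.02 (standard error 0.16). Irf8, a factor of monocytes and also of dendritic and B cells, was at 33.5, 27.2 and 72.8 CPM in WT glands and at 31.1, 25.4 and 159 CPM in the Adamts18-/- glands. Its SD of 75.3 CPM in Adamts18-/- glands came from mouse 3.

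Of 16 other macrophage markers, 0 were lower and 0 were higher at the thresholds. In the Adamts18-/- gland of all 3 mice 4 (Itgam, Tyrobp, Laptm5 and Cd53) were higher and 0 were lower, where 23.4% of all tested genes shared a sign in either direction. Emr1, the older symbol of the F4/80 gene, was at 64.1 ± 17.2 CPM in WT and 65.2 ± 11.7 CPM in Adamts18-/- glands, a log2 difference of 0.05 (standard error 0.12). Tyrobp, a signalling adaptor of myeloid receptors, had a log2 difference of 0.14 (standard error 0.066). Of 13 genes of resident macrophages 0 were called, with a median log2 difference of -0.05. Retnla, a secreted product of alternatively activated macrophages, reached 910 ± 318 CPM in WT and 1108 ± 471 CPM in Adamts18-/- glands, and Lyve1 differed by -0.02 (standard error 0.26). The lists of 10 monocyte genes, 12 receptors and partners of C1q, and 13 lysosome and phagocyte genes held 0 called genes each, with medians of 0.08, -0.10 and -0.01.

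Among the marker lists of other cell types, the epithelial lists held genes called lower. Of 24 pan-epithelial genes 6 were lower at the thresholds, with a median log2 difference of -0.37, and those with the smallest p were the keratin genes Krt19 (-0.62), Krt7 (-0.39), Krt18 (-0.52) and Krt8 (-0.43) and the protease inhibitor gene Spint1 (-0.47). Of 8 myoepithelial genes 7 were lower, with a median of -0.49. Those with the smallest p were the contractile genes Cnn1 (-0.63), Myh11 (-0.45), Mylk (-0.34) and Acta2 (-0.45) and the oxytocin receptor gene Oxtr (-0.57). Which cells the RNA of the contractile genes came from was not tested. The summed level of the pan-epithelial genes in the Adamts18-/- gland was 0.974, 0.589 and 0.704 times that in the WT gland of mice 1, 2 and 3. The 9 macrophage genes summed to 1.74, 0.829 and 1.05 times the pan-epithelial sum in WT glands and to 1.88, 1.61 and 1.43 times in Adamts18-/- glands, a change of 1.08-fold, 1.95-fold and 1.37-fold within the hosts. For Csf1 the corresponding changes were 0.938-fold, 2.19-fold and 0.984-fold. Lyz2 made up the largest part of the macrophage sum, in mouse 3 1165 of 2693 CPM in the WT and 1407 of 2594 CPM in the Adamts18-/- gland. The rest of these 9 genes were lower in the Adamts18-/- gland of that host. The 16 other macrophage markers listed above were mixed there, and summed to 1.10 times the WT level. The 13 resident macrophage genes summed to 0.993 times the WT level. With the libraries scaled to the pan-epithelial genes, which moved the median of all tested genes to 0.38, the log2 differences of the 10 members lay between 0.10 (Cd163) and 0.56 (Lyz2) and none was called.

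Lymphoid genes were high in mouse 3, the host in which Irf8 was high. Lyz2 was highest there too, at 1286 CPM against 1149 CPM in mouse 1 (mean of both glands). In mouse 1 the T cell genes summed to 42.4 CPM in the WT and 37.6 CPM in the Adamts18-/- gland. The summed level of 9 T cell genes in both glands of mouse 3 was 7.35 times the mean of the other hosts, that of 8 B cell genes 6.73 times and that of 8 dendritic cell genes 2.07 times. Within mouse 3 the T cell genes summed to 2.75 times the WT level in the Adamts18-/- gland. Of 10 neutrophil genes, which share Lyz2 with macrophages, 6 passed the filter and 0 were called. The list summed to between 15.7 and 33.3 CPM, highest in the Adamts18-/- gland of mouse 3, where Lyz2 was highest too. Cxcr2 was at 4.57 CPM there against 0.515 to 1.32 CPM in the other libraries, and Retnlg at 3.71 against 0.462 to 1.15 CPM. Elane was highest in the WT gland of mouse 2 instead (1.04 CPM). Csf3r was the largest part of each sum, and Ly6g was under 0.1 CPM on average. Of 8 skeletal muscle genes 0 were called, and their sum in the Adamts18-/- gland was 35.4, 12.6 and 0.670 times the WT level in mice 1, 2 and 3. Of 8 adipocyte, 8 fibroblast, 8 endothelial and 6 mast cell genes, 0 were called. The part of these other cell types in the values of the macrophage genes was not tested.

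**Figure D4:**
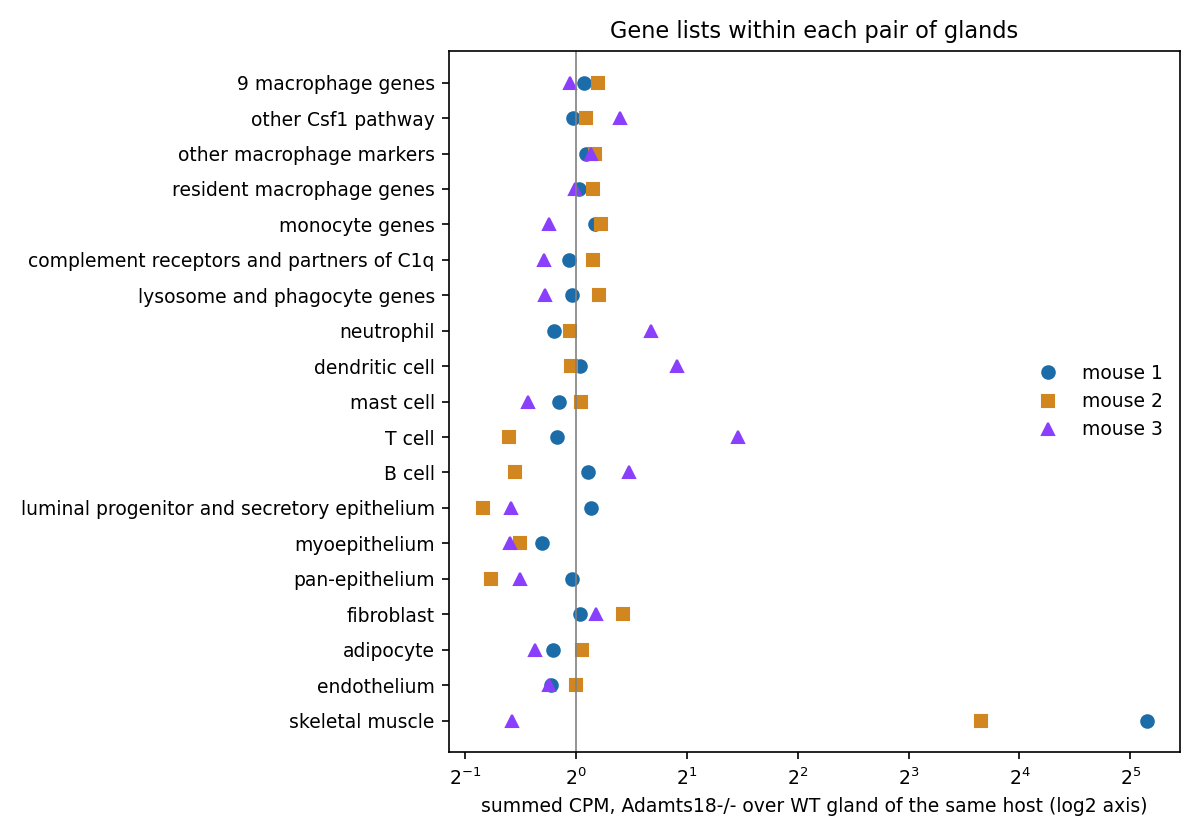
Summed CPM of each gene list in the Adamts18-/- gland divided by that in the WT gland of the same host (horizontal log2 axis). Each symbol is 1 host. The 9 macrophage genes lie between 0.963 and 1.15, epithelial lists lie mostly to the left of 1, and skeletal muscle lies far to the right in mice 1 and 2. Lyz2 is the largest part of the macrophage sum (1407 of 2594 CPM in the Adamts18-/- gland of mouse 3). In mouse 3 it was the only one of the 9 that was higher in the Adamts18-/- gland.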

How the data were processed

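RNA-seq read counts per gene symbol, deposited by the authors in 1 table for 6 libraries, were used as given, without normalization. The submitters' processing notes name bcl2fastq 2.18, TopHat2 2.0.11, featureCounts 1.6.2, edgeR and the build mm9. The strand setting and the annotation were not given in the sources used here. Every sample column was used (0 left out).

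Genes were filtered with filterByExpr, scaled by TMM and fitted with edgeR 4.0.16 (quasi-likelihood, R 4.3.3) on genotype with the host mouse as a block, as the study compared contralateral glands and corrected for the mouse. A gene was called at the cut-offs of the study, a fold change below 0.8 or above its inverse and an unadjusted p under 0.05. The test was not the study's, which removed the mouse effect by an ANOVA correction. Its volcano plot legend names a Kolmogorov-Smirnov test. The genes called here are therefore not the study's own list. Benjamini-Hochberg adjusted p-values over 17345 genes are given too. The mouse numbers were taken to pair the glands. Libraries of the same mouse deviated together (correlations 0.512, 0.505 and 0.639). The root mean square log2 difference was 0.531 to 0.543 between libraries of the same mouse. Between libraries of the same genotype it was 0.461 to 1.03, so the ranges overlapped. DESeq2 1.42.0, limma-voom (limma 3.58.1), other scalings and filters, a fit without the block and each mouse left out were the alternatives. The genotype p-values set the difference against the spread between 3 pairs, with the spread estimate of each gene moderated by those of the other genes. The error given for single counts covers counting only.

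The members and gene lists were chosen with earlier results of these data known. All 10 members were named, with up to 5 called genes of each list by smallest p, some of its abundant markers and the 5 profiles most like the C1q mean, Csf1 and Cd14. Further list genes named for their role, such as Il34, Irf8, Tyrobp, Lyz1 and Lyve1, were chosen after their values were seen. Promoters of 7 of the 10 members were matched in a RefSeq table (GRCm38.p6). The result of 1 gene of these lists is not reported here.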

Additional observations from a re-analysis of the deposited data

How the results depend on the processing

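No member was called at the thresholds, or at an adjusted p under 0.05, in any of the 12 alternatives. Of 120 fitted log2 differences (10 members, 12 alternatives), 103 kept their direction and 17 reversed. Scaling to the pan-epithelial genes, which moved the median of all genes to 0.38 and that of the members to 0.35, gave 0.27 for Csf1, 0.37 for Csf1r, 0.30 for C1qa, 0.34 for C1qb, 0.35 for C1qc, 0.10 for Cd163 and 0.33 for Mrc1. With each mouse left out in turn, the fits ran from -0.33 to 0.13 for Csf1, -0.14 to 0.13 for Csf1r, -0.16 to 0.087 for C1qa, -0.17 to 0.12 for C1qb, -0.13 to 0.098 for C1qc, -0.47 to 0.083 for Cd163, -0.25 to 0.22 for Mrc1, -0.16 to 0.31 for Cd14 and -0.10 to 0.16 for Cd68. For the first 7 the value above 0 was that without mouse 3. Cd14 was also below 0 without mouse 2 (-0.02). With mice left out, the median of the members ran from -0.15 to 0.13.

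The members at an unadjusted p under 0.05 numbered 1 with DESeq2 (Lyz2) and 0 to 1 with mice left out (Cd14 without mouse 3). Between hosts, 7 members were called with DESeq2, 1 under pan-epithelial scaling, 1 without a filter and 0 to 1 with mice left out. Over all genes, 319 were lower and 203 higher. Without the replicate block, 125 were lower and 218 higher, and 0 members were called. Pan-epithelial scaling gave 30 lower and 1108 higher, DESeq2 340 higher, limma-voom 345 higher and no filter 352 higher, while leaving out mice gave 214 to 481 lower and 182 to 581 higher. At an adjusted p under 0.05, DESeq2 called 71 genes, pan-epithelial scaling 267 and fits without a mouse 0 to 268, the highest without mouse 3. The causes were not tested. Each member had at least 2656 reads in each library, and each fit rests on 3 pairs or fewer.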

Other observations

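A few phagocyte and migratory cell genes, chosen here after their values were seen, were high in a single library, the Adamts18-/- gland of mouse 3, in which Cd163, Mrc1, Cd14 and Csf1 were at their lowest and Lyz2 at its highest. Marco, a scavenger receptor of macrophages in lymphoid tissue, was at 26.0 CPM there and at 0.212 to 0.710 CPM in the 5 other libraries. Ccr7, the chemokine receptor of migratory dendritic cells and naive T cells, was at 66.0 CPM there against 2.94 to 13.9 CPM. Chi3l3, a chitinase-like protein secreted by alternatively activated macrophages, was at 16.6 CPM there against 0.245 to 1.08 CPM. None of the 3 genes was called between the genotypes. The T cell genes summed to 589 CPM in that library against 214 CPM in the WT gland of the same host. The B cell genes summed to 2569 against 1844 CPM in these glands, of which Igj alone made 1789 and 1647 CPM. The part of lymphoid cells in these values was not tested, and a single library has no replicate.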
